A study of Macaca fascicularis with 132 samples.

Results

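A set of genes of cynomolgus macaque blood cells had more RNA with interleukin-15 (IL-15) than without it in the first hours of culture, and less RNA with IL-15 than without it at 48 h. The members were chosen by measured values, and those values are therefore a description and not a finding. Counts of the 3 libraries of an animal and group were summed and scaled to the total of each sum (CPM), and the IL-15 effect at a time was the difference in log2(CPM + 1) between the cultures with IL-15 and the control cultures, averaged over 4 animals. A gene belonged to the set when its mean was at least 5 CPM in at least 1 control group, its effect was at least 0.3 at 2 h or at 6 h, its effect was at most -0.3 at 48 h, and its effect at 12 h was above -1. Of 38550 genes in the table, 31327 had a count and 10811 passed the level of 5 CPM. Of those 10811 genes, 1306 had the early effect, 2912 had the effect at 48 h, and 1.10% met the whole rule. The members were 65 genes with the early effect at 2 h only, 43 with it at 6 h only and 11 with it at both times. All of them were measured well enough to be tested, and 75 of them were at or above 5 CPM in all 6 control groups. The effect at 24 h was not used to choose them.

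The study kept mononuclear cells from the blood of 4 macaques (Macaca fascicularis), the females 38142 and 38155 and the males 38147 and 38157, in culture. Control cultures, without the cytokine, were sampled at 0, 2, 6, 12, 24 and 48 h. Treated cultures received 40 ng/ml of heterodimeric IL-15, which is IL-15 joined to its receptor alpha chain (IL-15/IL-15Ra), and were sampled at 2, 6, 12, 24 and 48 h. Messenger RNA of each animal and group was sequenced in 3 numbered libraries, which gives 44 sums. No age, genotype or other treatment of the animals is given in the labels. The animals of 1 group are also the animals of every other group, so all comparisons are within the same 4 animals.

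IL-15 is a cytokine of the common gamma chain family. It is presented to neighbouring cells by the alpha chain of its receptor and signals through the beta and gamma chains, which it shares with IL-2, to the kinases JAK1 and JAK3 and the transcription factor STAT5. In blood it acts above all on natural killer cells and memory CD8 T cells, which survive, divide and gain cytotoxic function under it. Mononuclear cells of blood also hold other T cells, B cells, monocytes and dendritic cells, and cells kept in culture change their RNA with time even when nothing is added. RNA responses to a cytokine often start with genes that are transcribed directly downstream of the receptor and go on with genes that follow from the altered state of the cells.

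The gene IDs of the table come without symbols, and 0 of them were found in the gene reference used here. The members are therefore described as groups by the time of their early effect, and 4 of them by ID. Marker genes of the cell types, which would check the labelled tissue, could not be looked up for the same reason, and no role of a member is given. The RNA is that of whole cultures. A lower level of a gene can mean fewer cells of the type that makes it or less of its RNA per cell, and these cannot be told apart here.

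Library totals ran from 16423972 to 87944372 counts with a median of 27185130. Apart from their sister libraries stood 3 libraries, namely library 1 of animal 38142 in control at 48 h, library 3 of animal 38157 in control at 2 h and library 2 of animal 38147 with IL-15 at 24 h. Without these 3 libraries the rule chose 99 genes, of which 90 were members. The median effect of the members at 2 h was then 0.28 instead of 0.32, at 24 h -0.39 instead of -0.38, and at 48 h -0.49 instead of -0.50. CPM of library totals, which the rule uses, and TMM scaling, which the tests use, differ in where they put the bulk of the genes. The median IL-15 effect of the 10811 genes was 0.02, -0.03, -0.15, -0.14 and -0.07 on the CPM scale at 2, 6, 12, 24 and 48 h, and -0.02, 0.00, 0.03, 0.03 and 0.03 in the TMM-scaled fit. From 12 h on, the median on the CPM scale therefore lies about 0.1 or more below the median in the fit; single genes differ from this.

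Over all members the median effects at 2, 6, 12, 24 and 48 h were 0.32, 0.15, -0.15, -0.38 and -0.50 on the CPM scale. Most early effects were small. They were under 0.4 in 60 members and under 0.5 in 84 members, and reached 1, a doubling, in 5 members. At 48 h the effect was -1 or lower in 11 members. All 4 animals shared the direction of the mean at the early time in 91.6% of the members, at 48 h in 88.2%, and at both in 98 members. The sign of the effect turned at different times. The last time above 0 was 2 h for 47 members, 6 h for 26, 12 h for 29 and 24 h for 17.

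Values close to the limits of the rule show how finely it divides the genes. The smallest early effect of a member was 0.3001, and the nearest gene outside was at 0.299. At 48 h the member closest to the limit was at -0.3002 and the nearest gene outside at -0.2996. At 12 h the lowest member was at -0.976, and the nearest of the 5 genes left out by that limit alone was at -1.03. In the edgeR quasi-likelihood test, with Benjamini-Hochberg adjustment over all 18197 genes tested, 19 members were called higher at 2 h, where 1.67% of all genes tested were, and 23 at 6 h, where 5.12% were. At 48 h 78 members were called lower, and 19.98% of all genes tested were. Both calls, higher at 2 or 6 h and lower at 48 h, were met by 28 members and by 37 of all genes tested. The rule used these contrasts, and nothing is read from the counts.

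**Figure D1:**
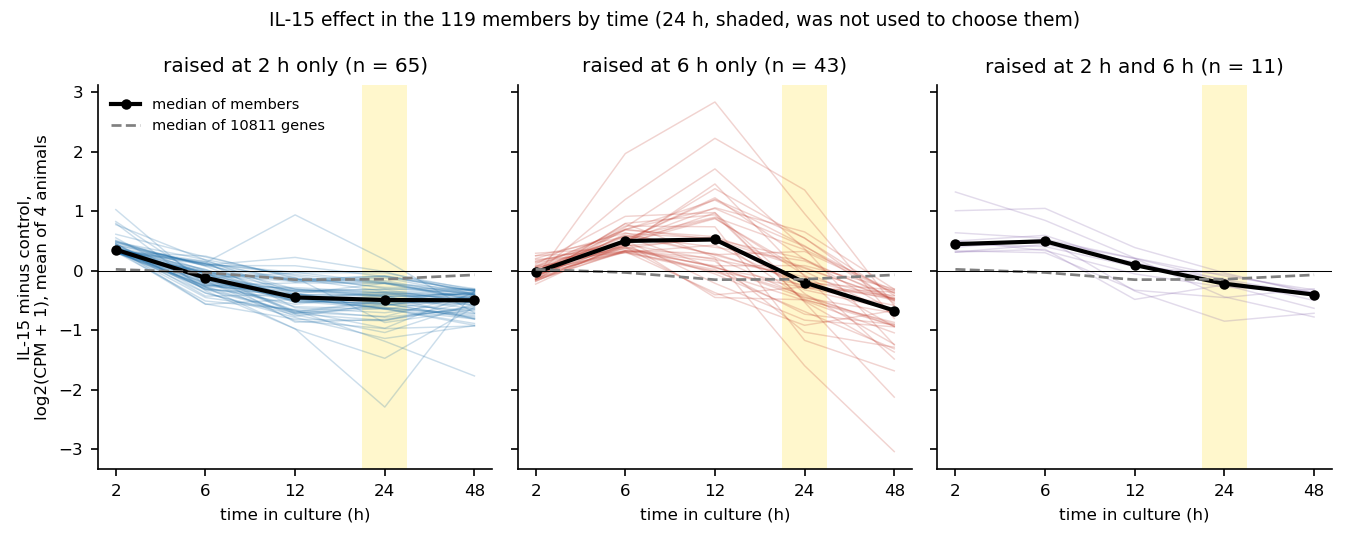
The x axis gives the time in culture in hours, and the y axis the IL-15 effect as the difference in log2(CPM + 1), mean of 4 animals; thin lines are members, the black line is their median and the dashed line the median of 10811 genes. Members raised at 2 h only had a median of -0.45 at 12 h, while members raised at 6 h only had a median of 0.53 at 12 h and -0.67 at 48 h.

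The 65 genes raised at 2 h only had a brief early effect. Their median effects at 2, 6, 12, 24 and 48 h were 0.35, -0.12, -0.45, -0.49 and -0.50. On the CPM scale 47 of the 65 were already below control at 6 h, and 62 of them were at 12 h. Of the 10811 genes past the level, 6065 and 7298 were below control at these times. With TMM-scaled library sizes 42 and 50 of the 65 were below control, beside 5325 and 5064 of the 10811 genes. The counts thus depend in part on the scale. Medians over the 65 genes in single animals ran from 0.33 to 0.46 at 2 h on the CPM scale. At 12 h they ran from -0.52 to -0.28, so no animal departed from this order. The effect at 48 h was -1 or lower in 1 of them.

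The 43 genes raised at 6 h only had their effect later and over a wider range. Their median effects at the 5 times, in the same order, were -0.03, 0.50, 0.53, -0.20 and -0.67. In 19 of them the effect was greatest at 12 h, and in 10 of them it was -1 or lower at 48 h. Animal 38155 had the highest median at 6 h, 0.85, and the other animals ranged from 0.36 to 0.47. At 12 h the effect was called higher in 25 of the 43 and lower in none, whereas in the genes raised at 2 h only it was called higher in 2 and lower in 24 of 65. Of all members 30 were called higher and 24 lower at 12 h, beside 17.5% and 14.01% of all genes tested. The rule bounds the effect at 12 h from below, so these calls too are a description.

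The 11 genes raised at both early times had median effects of 0.45, 0.50, 0.10, -0.22 and -0.40 at the 5 times. The lowest of these 11 genes at 48 h was at -0.78, within the range of the other groups. Their number is too small for more than these values.

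The levels from which the effects were formed moved in both arms, and change from 0 h is given here on the CPM scale without a test. In the genes raised at 2 h only, the control cultures had median changes of -0.19, 0.81, 0.89, 1.02 and 1.07 at the 5 times, and the cultures with IL-15 had 0.15, 0.76, 0.61, 0.57 and 0.62. Both arms thus held more RNA of these genes at 6 h than at 0 h. The median change between 2 h and 6 h was 0.99 in control and 0.56 with IL-15. Over the 10811 genes it was 0.19 in control and 0.14 with IL-15. The effects at 2 h and 6 h formed this group, so part of the larger step in control follows from the choice. Between 6 h and 12 h the level with IL-15 was lower at the later time in 57 of the 65 genes, with a median step of -0.24, while the control step had a median of 0.08. Over the 10811 genes the step from 6 h to 12 h had a median of -0.07 with IL-15 and 0.04 in control. With IL-15 it was below 0 in 6552 of these genes.

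In the genes raised at 6 h only, the control level stood near its start at 6 h, with a median change of 0.03, and the medians at 12, 24 and 48 h were 0.47, 0.83 and 1.16. With IL-15 the medians from 6 h to 48 h were 0.61, 0.72, 0.66 and 0.69. The control steps from 6 to 12 h, 12 to 24 h and 24 to 48 h were upward in 40, 41 and 36 of the 43 genes. Over the 10811 genes they were upward in 6590, 6623 and 5456. With IL-15 the steps were upward in 30, 14 and 17 of the 43 genes, and in 4259, 6597 and 6491 of the 10811. The level at 48 h was higher than at 0 h in 36 of 43 in control and in 34 of 43 with IL-15. Among the 10811 genes it was higher in 7549 in control and 6907 with IL-15. The control levels at 6 h and 48 h enter the effects of the rule, so part of the upward course in control follows from the choice. The 11 genes raised at both times had a median change in control of -0.33 at 2 h and 0.68 at 48 h, and with IL-15 of 0.74 at 6 h and 0.35 at 48 h.

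**Figure D2:**
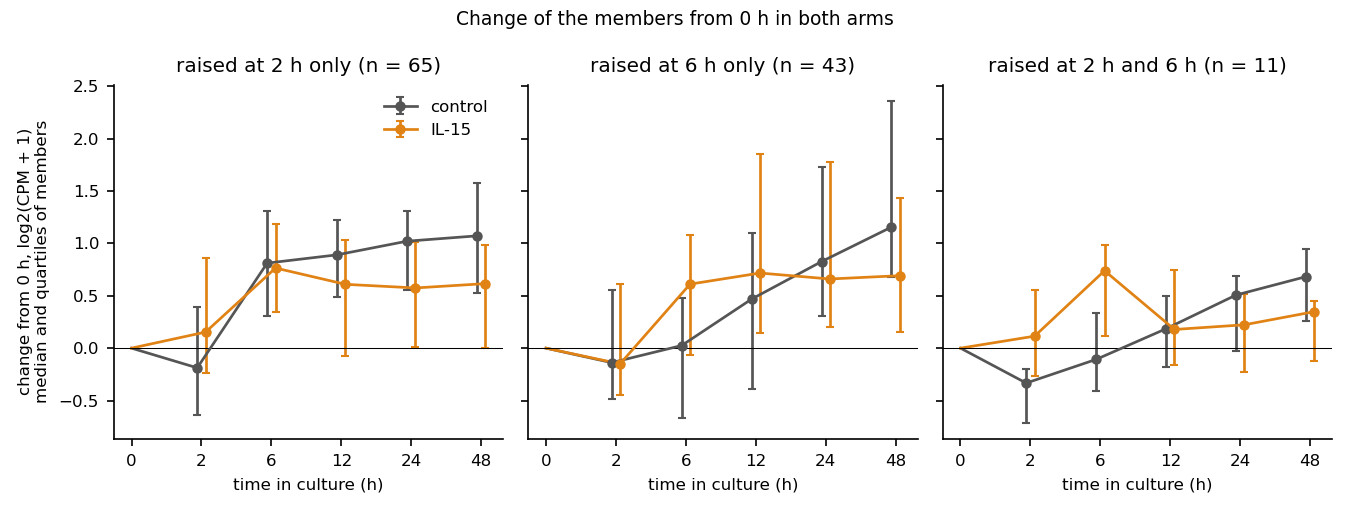
The x axis gives the time in culture in hours, and the y axis the change from 0 h in log2(CPM + 1); points are medians over the genes of each group and bars their quartiles, in grey for control and orange for IL-15. In the genes raised at 6 h only the control median reached 1.16 at 48 h and the IL-15 median 0.69.

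The effect at 24 h is the IL-15 comparison that the rule left unused, and it was tested. Control at 24 h entered the rule only through the level of 5 CPM, which 1 member met in that group alone. Of the members, 42 were lower with IL-15 at 24 h and 7 were higher (edgeR quasi-likelihood test, adjusted p under 0.05). Among all 18197 genes tested 18.98% were called lower and 20.03% higher, and among the 10811 genes past the level 21.1% were called lower and 28.1% higher. The share of members called lower was 35.3% and the share called higher 5.88%. Most lower calls came from the genes raised at 2 h only, of which 36 of 65 (55.4%) were lower and none was higher at 24 h, with 40 of the 65 at an unadjusted p under 0.05. Of the genes raised at 6 h only, 5 of 43 were lower and 7 were higher, and of those raised at both times 1 of 11 was lower. The median standard error at 24 h was 0.12 in the genes raised at 2 h only and 0.27 in those raised at 6 h only. An effect of the same size is therefore called less often in the latter. Without the 3 libraries that stood apart, 46 members were lower and 7 higher, and 39 of the genes raised at 2 h only were lower.

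The sizes of these differences were moderate. The median log2 fold change at 24 h was -0.25 over the members in the fit, where the 10811 genes had a median of 0.03, and 83 members were below 0. It was -0.33 in the genes raised at 2 h only, -0.10 in those raised at 6 h only and 0.00 in those raised at both times, beside a median standard error of 0.15 over the members. The 42 lower genes ranged from -0.24 to -2.26 with a median of -0.55, a level with IL-15 of 0.684 times that of control. The 7 higher genes ranged from 0.37 to 1.67 with a median of 0.62, and all of them belonged to the genes raised at 6 h only. In that group the middle 50% of the log2 fold changes ran from -0.37 to 0.40, and in the genes raised at 2 h only from -0.50 to -0.13. The count of 7 was 2 without animal 38142, 4 without animal 38155, and 6 without animal 38147 or animal 38157. Higher calls over all genes tested also fell when an animal was left out. They numbered 3644 with all animals, 2490 without 38142, 2604 without 38155, 3129 without 38147 and 3051 without 38157. Of the genes raised at 6 h only, the 5 lower calls were 2 without animal 38142. When the rule was applied with TMM-scaled library sizes it chose 70 genes, 65 of them members, and 25 of the 70 were lower and 6 higher at 24 h.

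**Figure D3:**
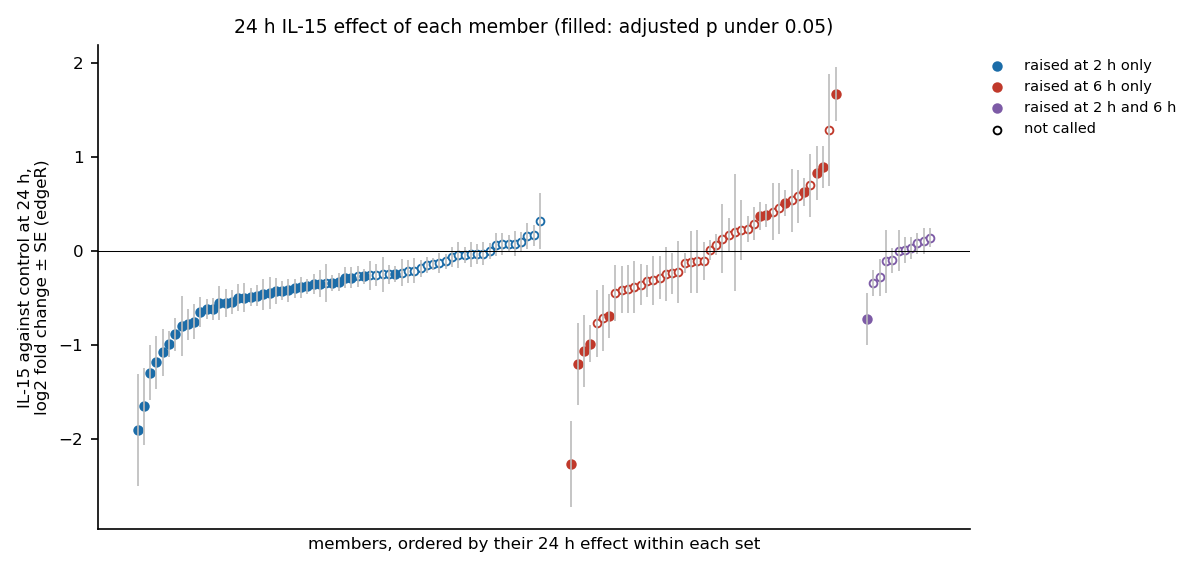
Each point is 1 member, ordered along the x axis by its value within its group; the y axis gives the log2 fold change of IL-15 against control at 24 h with its standard error, and filled points have an adjusted p under 0.05. Filled points lie only below 0 among the 65 genes raised at 2 h only, and on both sides of 0 among the 43 raised at 6 h only.

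On the CPM scale 85.7% of the members had a mean effect below 0 at 24 h, as did 6987 of the 10811 genes past the level. With TMM-scaled library sizes it was 70.6% of the members and 5139 of the 10811 genes. In single animals 91 (38142), 92 (38147), 93 (38155) and 98 (38157) of the members were below 0 on the CPM scale, beside 6412, 6874, 7383 and 6298 of the 10811 genes. All 4 animals were below 0 in 55.5% of the members and in 38.7% of the 10811 genes. All 4 were above 0 in 5.04% of the members and in 18.9% of those genes. The values in control and with IL-15 did not overlap between animals, with IL-15 below, in 22 members (18.5%), and in 17.03% of the genes past the level. Among the genes raised at 2 h only it was 18 of 65. The tokens in the library names, which the labels do not explain, allowed a comparison within a token for animal 38155 alone. There the member median at 24 h was -0.52 with 1 library against 1, and -0.49 with 2 libraries against 2. The 10811 genes had -0.20 and -0.24 in the same libraries. Animal 38155 also had the lowest member median at 24 h, -0.51. In the other animals the arms shared no token at 24 h, so token and IL-15 cannot be told apart within them.

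Genes that shared only 1 side of the rule give a setting for these counts. Of 530 genes with an early effect of at least 0.3 and an effect at 48 h between -0.3 and 0.3, 266 (50.2%) were higher and 15 lower at 24 h. Of 2578 genes with an effect of -0.3 or lower at 48 h, no early effect and, as in the members, an effect above -1 at 12 h, 1532 (59.4%) were lower and 15 higher. Without the limit at 12 h there were 2788 such genes, of which 1739 (62.4%) were lower. Of 62 genes with the opposite course, lower at 2 or 6 h, higher at 48 h and below 1 at 12 h, 7 were higher and 1 was lower. The share of lower calls among the genes raised at 2 h only, 55.4%, thus stands beside 59.4% in the genes with a late lower level alone and 11.6% in the genes raised at 6 h only. The last share depends on the fit, since 15 of the 43 were lower when libraries were fitted singly, as if each were a replicate. The median standard error at 24 h was also 0.27 in these 43 genes. It was 0.12 in the genes raised at 2 h only and 0.13 in the genes with a late lower level alone. At 12 h the genes with a late lower level alone had a median effect of -0.42 on the CPM scale, beside -0.45 in the genes raised at 2 h only and 0.53 in those raised at 6 h only. The shares were not tested against each other, because the groups were formed from effects in the same animals.

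**Figure D4:**
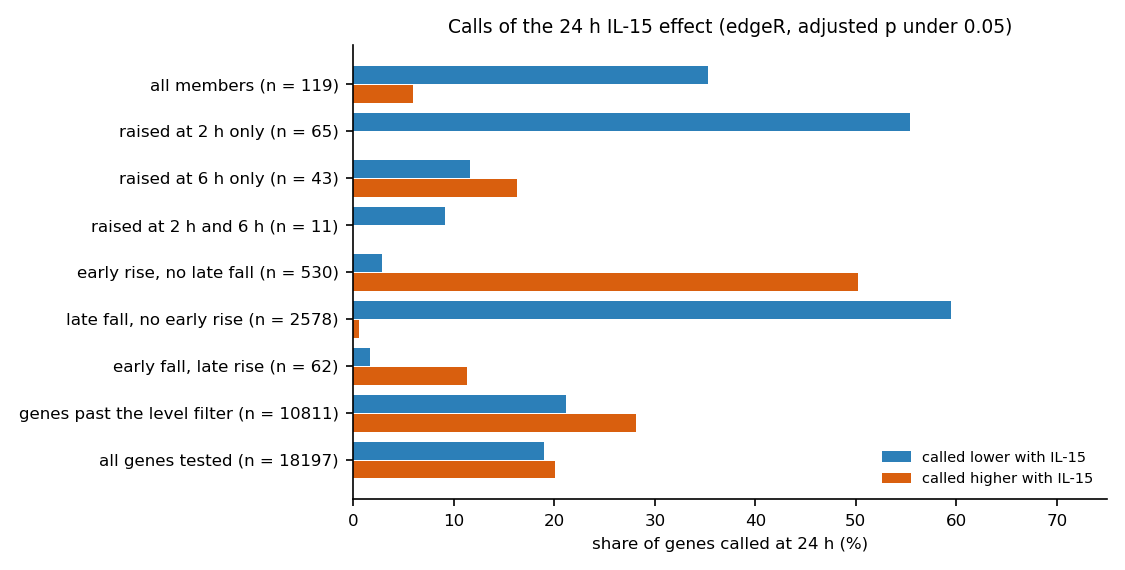
The x axis gives the share of genes called at 24 h in percent, in blue for lower and orange for higher with IL-15, for the members, their groups, genes that met other parts of the rule, and all genes. The genes raised at 2 h only stand at 55.4% lower and the genes past the level at 21.1%.

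Members also differed between 0 h and 24 h in culture without IL-15. The level of 5 CPM could be met in any control group, and 34 members lay below it at 0 h, so that a higher level at a later time was part of how they entered. Of the 85 members at 5 CPM or more in control both at 0 h and at 24 h, 43 rose and 15 fell between these times. Among the 9399 genes with the same levels 30.4% rose and 33.1% fell. The median log2 fold change was 0.36 in these 85 members and -0.03 in the 9399 genes. With a mean of 5 CPM or more over all samples as the limit instead, 64 members rose and 15 fell, beside 3352 and 3226 of 10111 genes. Counted over all members, 76 rose and 15 fell, where 30.1% of all genes tested rose and 25.4% fell, and 33 of the 76 were among the 34 low at 0 h. Of the genes raised at 2 h only, 47 rose and 5 fell, of those raised at 6 h only 25 rose and 6 fell, and of the 11 raised at both times 4 rose and 4 fell. Among the 10811 genes past the level 33.9% rose and 31.6% fell. These 3 groups include the members low at 0 h, so part of the rise follows from the level filter.

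With IL-15 at 24 h, 36 of the same 85 members were above and 24 below the control level of 0 h. Among the 9399 genes 38.7% were higher and 33.3% lower. The median log2 fold change was 0.23 in the 85 members and 0.05 in the 9399 genes. With the limit on the mean over all samples, 58 members were higher and 24 lower, beside 4197 and 3195 of the 10111 genes. These 2 limits were chosen after seeing the data. Counted over all members, 67 (56.3%) were higher and 24 (20.2%) lower, where 32.5% of all genes tested were higher and 28.3% lower. Of these 67, 31 were among the 34 low at 0 h. Of the 530 genes with an early effect and an effect at 48 h between -0.3 and 0.3, 73.8% were higher and 6.98% lower. Of the 2578 genes with a late lower level alone, 23.3% were higher and 48.7% lower. Of the genes raised at 2 h only, 40 were higher and 13 lower than at 0 h, of those raised at 6 h only 24 were higher and 7 lower, and of the 11 raised at both times 3 were higher and 4 lower. Here too the members low at 0 h are included. Among the 10811 genes past the level 40.6% were higher and 32.3% lower. This comparison and the one for control share the 0 h samples, so their counts stand side by side and are not set against each other.

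Data of 4 members are given for single animals at selected times. They were chosen without the 24 h effect among 60 members with a mean of at least 20 CPM. These 60 members had the same direction in 4 of 4 animals both early and at 48 h. The first pair had the highest early effects, and the second pair the lowest effects at 48 h among the others. Levels are in CPM, which do not account for gene length, so they are not compared between genes.

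ENSMFAG00000030449 was raised at both early times, and its effect was lower at each later time from 12 h on. At 2 h animals 38142, 38147, 38155 and 38157 had 18.02, 11.99, 17.05 and 11.4 CPM in control and 30.5, 24.7, 34.69 and 30.51 CPM with IL-15. At 6 h they had 20.7, 13.9, 27.1 and 19.6 CPM in control and 38.6, 31.6, 51.6 and 49.3 CPM with IL-15. At both times the arms did not overlap, and the level with IL-15 was about double. At 24 h control held 23.9, 23.8, 37.4 and 29.3 CPM and IL-15 25.64, 25.68, 29.95 and 28.74 CPM, in the same order of animals. The arms overlapped there, and the difference of 0.14 on the log2 scale (SE 0.10) did not pass the test (edgeR, adjusted p = 0.29). Its sign depends on the scale, since the mean effect on the CPM scale was -0.03. At 48 h control held 37.42, 31.79, 42.96 and 36.41 CPM and IL-15 24.32, 26.61, 29.995 and 31.63 CPM, with every IL-15 value below every control value. With TMM-scaled library sizes the mean effect at 48 h was -0.28, short of the limit of -0.3 in the rule. The control level of this gene was 17.1 ± 3.50 CPM (SD, n = 4) at 0 h and 37.1 ± 4.58 CPM at 48 h, while IL-15 was at 42.8 ± 9.36 CPM at 6 h and 28.1 ± 3.29 CPM at 48 h. Against 0 h it rose by 24 h in control by 0.41 (edgeR adjusted p = 0.00087) and with IL-15 by 0.55 (adjusted p = 1.8e-05) on the log2 scale.

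ENSMFAG00000043785 was raised at 2 h only, at a time when its control level was low. At 0 h the animals 38142, 38147, 38155 and 38157 had 38.999, 30.70, 51.14 and 51.61 CPM. At 2 h they had 18.9, 14.1, 16.2 and 21.6 CPM in control and 61.01, 30.55, 25.80 and 37.46 CPM with IL-15. All 4 control values at 2 h lay below all values at 0 h, and the IL-15 values lay above the control values without overlap. By 6 h control stood at 89.07 ± 10.98 CPM (SD, n = 4) and IL-15 at 74.8 ± 9.11 CPM, and the arms overlapped from then on. At 24 h the values were 56.5, 53.2, 76.5 and 65.3 CPM in control and 51.3, 47.1, 58.9 and 58.1 CPM with IL-15. Each animal was lower with IL-15 on the CPM scale, with a mean effect of -0.21, and 3 of 4 were with TMM-scaled library sizes. The fitted difference was -0.04 (SE 0.14), with an edgeR adjusted p of 0.83. At 48 h control held 63.9 ± 10.7 CPM and IL-15 50.6 ± 3.78 CPM. The fitted difference at 48 h was -0.21 (SE 0.14) and did not pass the test (edgeR, adjusted p = 0.24). With TMM-scaled library sizes the mean effect at 48 h was -0.21, short of the limit of -0.3 in the rule. There 3 of 4 animals were below 0. The change of this gene from 0 h to 24 h did not pass the test in control (0.23, edgeR adjusted p = 0.18) or with IL-15 (0.18, adjusted p = 0.27).

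ENSMFAG00000038771 was raised at 6 h only and had the lowest effect at 48 h of the 4. Its animals differed widely in level. At 6 h its effects on the CPM scale were 0.36, 0.05, 0.88 and 0.50 in animals 38142, 38147, 38155 and 38157. The fitted difference at 6 h was 0.64 (SE 0.32) and did not pass the test (edgeR, adjusted p = 0.25). At 12 h animals 38142, 38147, 38155 and 38157 had 4.10, 11.9, 10.6 and 1.43 CPM in control and 8.44, 17.5, 29.96 and 4.06 CPM with IL-15, higher in each animal but overlapping between animals. At 24 h they had 29.2, 66.5, 29.8 and 6.81 CPM in control and 14.9, 43.3, 28.5 and 4.44 CPM with IL-15. The level was lower with IL-15 in each animal on the CPM scale and in 3 of 4 with TMM-scaled library sizes. The difference of -0.45 on the log2 scale (SE 0.30) did not pass the test (edgeR, adjusted p = 0.24). At 48 h they had 187.6, 367.4, 169.1 and 72.2 CPM in control and 23.7, 126.2, 54.8 and 12.8 CPM with IL-15. The control mean was 4.37 ± 2.57 CPM (SD, n = 4) at 6 h and 199.1 ± 123.1 CPM at 48 h, and the IL-15 mean was 6.51 ± 4.40 and 54.3 ± 51.1 CPM. Both arms were thus far higher at 48 h than at 6 h. By 24 h the gene rose from 0 h in control, by 0.87 (edgeR adjusted p = 0.015), and the change with IL-15 was 0.42 (adjusted p = 0.23).

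ENSMFAG00000036068 was also raised at 6 h only, and 1 animal carried most of its effect at 12 h. Its level in control was highest at 0 h, with 50.5, 135.2, 79.9 and 27.4 CPM in animals 38142, 38147, 38155 and 38157. At 6 h its effects on the CPM scale were 0.10, 0.15, 1.13 and 0.35 in the same order of animals, with animal 38155 far above the others. The fitted difference at 6 h was 0.52 (SE 0.62) and did not pass the test (edgeR, adjusted p = 0.73). At 12 h control held 3.94, 13.8, 25.5 and 1.84 CPM and IL-15 13.3, 30.9, 252.3 and 1.72 CPM. Animal 38155 thus held 252.3 CPM, and in animal 38157 the CPM differed little between the arms. At 24 h control held 4.82, 14.2, 31.8 and 2.18 CPM and IL-15 3.24, 28.83, 29.04 and 0.874 CPM, with animal 38147 higher and the others lower with IL-15 on the CPM scale. With TMM-scaled library sizes 2 animals were below 0 and 2 above. The difference was 0.20 on the log2 scale (SE 0.62), with an edgeR adjusted p of 0.83, and without animal 38147 it was -0.25 (adjusted p = 0.83). At 48 h control held 6.25, 10.6, 9.64 and 4.14 CPM and IL-15 0.527, 8.40, 1.47 and 1.13 CPM. From 0 h to 24 h the gene fell by 3.28 on the log2 scale in control (edgeR adjusted p = 1e-04) and with IL-15 it fell by 3.09 (adjusted p = 0.00016). It thus differs from the other 3 in that its control level at 48 h, 7.66 ± 2.99 CPM (SD, n = 4), lay below that at 0 h, 73.2 ± 46.6 CPM.

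**Figure D5:**
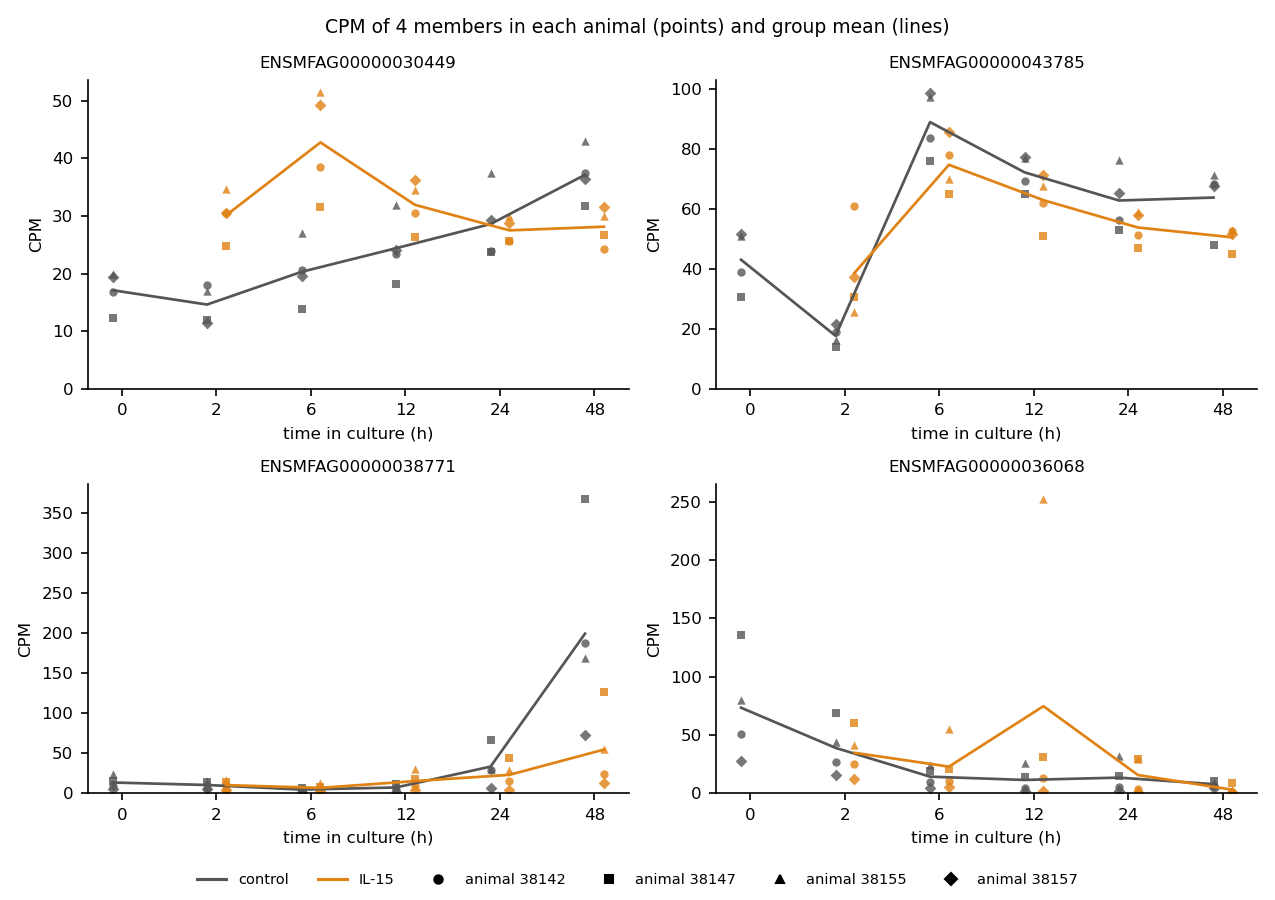
Each panel is 1 gene; the x axis gives the time in culture in hours and the y axis CPM, with 1 point per animal and lines through the means of 4 animals, grey for control and orange for IL-15. ENSMFAG00000038771 has a control mean of 199.1 CPM at 48 h against 54.3 CPM with IL-15, and ENSMFAG00000036068 has animal 38155 alone at 252.3 CPM with IL-15 at 12 h.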

How the data were processed

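The authors deposited whole-number counts per gene for 132 libraries, in a table with cynomolgus and a table with rhesus gene IDs. The aligner, the counting and the genome build: not given in the sources used here. Members of the set numbered 119. The cynomolgus counts were used, and the rhesus counts served as an alternative. The series' design text names more animals than the 4 given; others are not analysed here. The members and all lists were chosen with earlier results of these data known. Gene and marker lists that need symbols could not be run, since 0 of 38550 IDs matched the reference.

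The labels do not say whether the 3 numbered libraries are separate cultures, so they were summed, and the animal is the replicate (54376963 to 126025607 counts per sum). p-values measure the spread of the sums that is left after animal and group are fitted, pooled over the 11 groups of these 4 animals. Testing used quasi-likelihood fits of edgeR 4.0.16 (R 4.3.3) on 44 sums with TMM scaling. Animal and group were the terms, all 11 groups entered 1 robust fit, and filterByExpr kept 18197 genes, with Benjamini-Hochberg adjustment and a threshold of 0.05. The pseudocount of the rule was 1.

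The animal pairs the groups: deviations of the same animal in both arms correlated in 20 of 20 pairs above 0.1 (median 0.807). Alternatives were RLE scaling, other count filters, DESeq2 1.42.0, single libraries, other designs, and each animal left out. The IDs named were the 2 with the highest early effect and then the 2 with the lowest effect at 48 h, among members with at least 20 CPM and 4 of 4 animals alike.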

Additional observations from a re-analysis of the deposited data

Results flagged for a closer look

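Among 64 groups of 4 animals checked, 4 had 1 animal far from the other 3; chance gives about 1 in 20. ENSMFAG00000043785 in control at 48 h was at 47.998 CPM in animal 38147, and the others were between 67.6 and 71.3 CPM. ENSMFAG00000036068 with IL-15 was at 252.3 CPM in animal 38155 at 12 h, with the others between 1.72 and 30.9 CPM, and at 8.40 CPM in animal 38147 at 48 h, with the others between 0.527 and 1.47 CPM. The median 24 h effect of the members was -0.51 in animal 38155 and between -0.30 and -0.28 in the others. In that animal the median of all 10811 genes was -0.23, also the lowest of the 4.

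On the log2(CPM + 1) scale, the effect of 2 of the named genes at 24 h was below 0 in each animal and above 0 in each animal at an earlier time. For ENSMFAG00000043785 the 24 h effect relative to 2 h was -1.24. For ENSMFAG00000038771 the effect at 24 h was -0.98 relative to 6 h and -1.50 relative to 12 h. These differences were not tested. The choice of these genes required an effect above 0 in each animal at the early time. That time was 2 h for ENSMFAG00000043785 and 6 h for ENSMFAG00000038771, so the signs there were fixed in advance. With TMM-scaled library sizes 3 of 4 animals were below 0 at 24 h for either gene.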

How the results depend on the processing

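The membership itself depended on the settings. It gave 64 genes with a pseudocount of 5, 70 with TMM-scaled library sizes (65 of them members as reported) and 17 with limits of 0.5, and, with 1 animal left out, 0.916 to 1.34 times the reported number; 48 stayed members with each of the 4 animals left out.

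For the 24 h effect (42 lower, 7 higher), leaving the animal out of the model, thus with no replicate block, gave 10 lower and 3 higher. Single libraries with animal by library number as a replicate block gave 65 lower and 12 higher, and with the name token as a term, an alternative chosen after seeing the data, 64 lower and 14 higher. The library numbers pair the samples weakly if at all. Of the pairs with the same number, 30 of 60 correlated above 0.1 (median 0.10), and pairs with other numbers had a median of -0.04. Both fits count the 3 libraries of an animal and group as separate replicates. The labels do not say that these are separate cultures, so the p-values of these fits can be too small. The 70 members by TMM-scaled library sizes, also chosen after seeing the data, held 25 lower and 6 higher genes. With 1 animal left out the counts were 31 to 39 lower and 2 to 6 higher (2 without 38142, 4 without 38155). Of the genes raised at 2 h only, 36 lower became 8 with no animal term, 17 of 25 under TMM membership and 26 to 33 with 1 animal left out, and none was called higher under any alternative in which these groups were formed, which excludes the rhesus table. Of those raised at 6 h only, 5 lower and 7 higher became 2 and 2 without animal 38142, 4 higher without animal 38155, 2 and 3 with no animal term, 15 and 12 with single libraries, 15 and 14 with the token as a term, and 9 lower with animal by time as a replicate block. The 85 members at 5 CPM in control at 0 h and 24 h, fewer genes chosen after seeing the data, held 27 lower and 4 higher at 24 h; from 0 h to 24 h 43 of them rose in control and 36 were higher with IL-15. From 0 h to 24 h in control, no animal term gave 6 falling genes instead of 15 and the TMM membership 41 rising genes instead of 76; with 1 animal left out 69 to 72 rose and 11 to 17 fell. With IL-15 the same settings gave 15 lower genes instead of 24 and 37 higher genes instead of 67, and 61 to 65 higher and 20 to 24 lower with 1 animal left out. ENSMFAG00000036068 at 24 h turned from 0.20 to -0.25 without animal 38147 (edgeR adjusted p = 0.83), and its adjusted p was over 0.05 throughout. ENSMFAG00000038771 passed the edgeR test at 24 h when single libraries counted as replicates. The values were -0.50 (edgeR adjusted p = 0.0175) with animal by library number as a replicate block and -0.41 (edgeR adjusted p = 0.0433) with the token as a term. Of 218 alternative values in all, 183 kept their direction and side of the threshold or stayed within 1.5 times of the reported count. The causes were not tested. The TMM membership used the same limits and holds fewer genes, so its counts of calls are not like for like. It kept 25 of the 65 genes raised at 2 h only, 36 of the 43 raised at 6 h only and 4 of the 11 raised at both times. With TMM-scaled library sizes the median effect of the 10811 genes shifted by -0.04 at 2 h and by 0.10 at 48 h.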
